A study of Mus musculus with 6 samples.

Results

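The 10 genes described here belong to the amino acid stress response and to serine synthesis, and were followed in mouse liver that lacked Nrf2. They are Atf4, Atf5, Ddit3, Asns, Trib3, Chac1, Psat1, Phgdh, Psph and Shmt2. The members were the probe sets, short groups of array probes that read 1 transcript region, annotated to exactly 1 of these gene symbols. There were 22 such probe sets for the 10 genes, out of 34945 probe sets with a single symbol and 18193 genes on the array. Of the 22, 16 probe sets for 9 genes were bright enough to be tested, and both probe sets of Psat1 were not. The study compared livers of Nrf2 knockout mice (genotype Nrf2 ko) with livers of wild-type mice (Nrf2 wt), both of strain C57B/SV129 and 10 weeks of age. Each genotype had 3 arrays, 6 in all, hybridised with RNA of 3 mice combined into 1 pool, so replicate error here is that between pools and does not show single animals. The labels name no injury, diet or drug, and do not say whether pools shared animals, so that the p-values measure only the spread between these pools.

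ATF4 is a transcription factor of the integrated stress response. Kinases that sense missing amino acids, unfolded proteins or other stress phosphorylate the initiation factor eIF2, general translation slows, and the ATF4 message is then translated more, so its RNA level is only part of its control. ATF4 binds C/EBP-ATF response elements and drives genes that make and import amino acids, among them the serine pathway, in which Phgdh, Psat1 and Psph act in turn and Shmt2 passes the carbon on to folate. NRF2 has been linked to serine synthesis genes through ATF4 in some human cancer cells, and the arrays allow the levels of the same genes to be compared in mouse liver with and without it.

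The promoters of Chac1, Trib3 and Asns are shown because these 3 of the 10 genes hold the core of a C/EBP-ATF response element near their start. Each line is 300 bases, 250 before and 50 after the transcription start, 5′ to 3′ on the gene's strand, from RefSeq on GRCm38.p6. Capitals mark a match on either strand to TGATGNAA, TGNNGCAAT or TGACNNNGC. TGATGNAA is the core of that element, and TGNNGCAAT is a variant chosen after these promoters had been seen. TGACNNNGC is the core of the antioxidant response element that NRF2 binds.
Chac1: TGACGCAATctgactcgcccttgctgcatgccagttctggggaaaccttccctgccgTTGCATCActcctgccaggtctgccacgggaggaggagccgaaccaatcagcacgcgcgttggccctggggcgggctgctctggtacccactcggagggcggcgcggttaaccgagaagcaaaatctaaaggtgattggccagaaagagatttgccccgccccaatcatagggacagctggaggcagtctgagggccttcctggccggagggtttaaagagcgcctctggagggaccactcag
Trib3: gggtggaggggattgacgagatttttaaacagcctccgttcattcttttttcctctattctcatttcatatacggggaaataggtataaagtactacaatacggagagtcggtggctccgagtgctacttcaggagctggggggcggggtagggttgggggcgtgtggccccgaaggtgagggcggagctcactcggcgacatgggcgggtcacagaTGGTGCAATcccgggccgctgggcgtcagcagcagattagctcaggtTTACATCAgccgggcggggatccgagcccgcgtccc
Asns: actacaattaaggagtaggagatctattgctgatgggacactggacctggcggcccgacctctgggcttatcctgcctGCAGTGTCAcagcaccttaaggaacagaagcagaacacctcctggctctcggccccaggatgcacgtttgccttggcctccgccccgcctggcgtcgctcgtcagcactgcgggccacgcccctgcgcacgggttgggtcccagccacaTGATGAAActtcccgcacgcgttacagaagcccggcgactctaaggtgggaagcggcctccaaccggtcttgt
The window of Chac1 is chr2:119350992-119351291 on the plus strand, that of Trib3 chr2:152344011-152344310 on the minus strand and that of Asns chr6:7693160-7693459 on the minus strand. Chac1 held TTGCATCA, which is TGATGCAA on the other strand, starting 193 bases before its start, and TGACGCAAT at the far end of the window. Trib3 held TGGTGCAAT starting 33 bases before its start and TTACATCA starting at base 15 of the transcript. Asns held TGATGAAA starting 23 bases before its start. The core TGATGNAA was in 3 of the 10 genes, and in 3.97% of the 32851 promoter windows of this length that were searched. The variant TGNNGCAAT, which can overlap the core, was in Trib3, Chac1 and 1 of the windows of Psat1, against 2.12% of all windows. The NRF2 core TGACNNNGC was in the windows of Asns, Phgdh and Psph, against 12.4% of all windows. In Phgdh the match is GCGGAGTCA, 53 bases before the start, in Psph it is GCGACGTCA, starting at base 5 of the transcript, and in Asns it is GCAGTGTCA, 172 bases before it. These are matches of letters, and binding was not measured here.

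The deletion was clear at the array. The brighter Nfe2l2 probe set, for the gene that encodes NRF2, read 5.74, 7.40 and 6.90 in Nrf2 ko liver and 696, 598 and 625 in Nrf2 wt liver. A second, dim Nfe2l2 probe set did not pass, at 0.14 ± 0.22 log2 (SE, n = 3 per genotype; limma adjusted p = 0.92). All 9 hepatocyte markers with a probe set, among them Alb, Ttr and Cps1, were above the filter. The trimmed mean intensity of the arrays lay between 92.7 and 132. The ratio of 3′ to 5′ actin signal, a sign of RNA integrity, was 1.94 to 2.01 in the knockout pools and 1.77 to 1.94 in the wild-type pools, with no overlap, and that of Gapdh overlapped. All 10 stellate and fibroblast markers were higher in the knockout, where 48.6% of all tested genes were lower. Of these markers 0 passed (lowest limma adjusted p = 0.51, for Des). Des was above the filter, which lay at 4.48 log2, only through the knockout. Its mean log2 value was 5.05 there and 4.05 in the wild type. Their summed level was 4743 to 4890 in the knockout against 3696 to 4249 in the wild type. The hepatocyte sum, also of normalized levels, was higher without overlap, at 87917 to 89223 against 83938 to 87263. The single hepatocyte markers went both ways, with 5 higher and 4 lower, the latter Alb, Ttr, Cyp2e1 and Hnf4a. Once normalized, 1 of them, Cps1, was higher without overlap, where 7.39% of all tested genes were. All tested markers of the exocrine pancreas (3) and of lymphocytes and granulocytes (5) were on the higher side, and the other marker lists went both ways. Of those pancreas markers Cela2a and Prss2, and of the lymphocyte and granulocyte markers Ms4a1, were above the filter only through the knockout. Their mean log2 values were 5.02, 4.86 and 4.82 there and 4.44, 4.45 and 4.45 in the wild type. The filter itself therefore favoured the higher side for these genes. The part of RNA integrity or cell types in the values below was not tested. Signal here is per tissue RNA, so fewer cells of a type and less RNA per cell cannot be told apart.

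None of the 9 tested genes passed the test between genotypes. At an adjusted p of 0.05 from limma, 0 of 9 tested genes and 0 of 16 tested probe sets were called, and 0 of the 9 genes reached even an unadjusted p under 0.05. Over all 11102 tested genes 0.144% were called, with 4.15% lower and 4.08% higher in the knockout at an unadjusted p under 0.05, so a count of 0 among 9 genes lies near the background. Of the 9 genes, 7 were lower and 2 higher in the knockout, where 48.6% of all tested genes were lower. Their median log2 difference was -0.13, beside 0.01 over all tested genes. The 2 members on the higher side were Psph and Atf5.

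**Figure D1:**
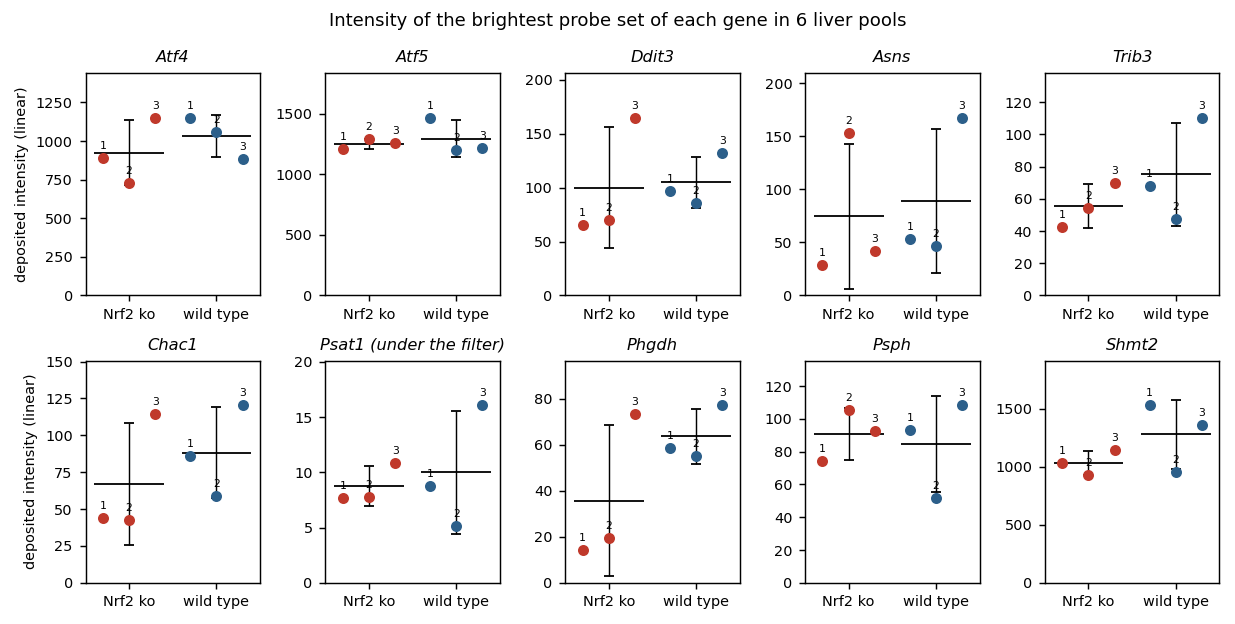
Deposited linear intensity of the brightest probe set of each of the 10 genes in the 3 Nrf2 knockout (red) and 3 wild-type (blue) liver pools, numbered by replicate, with the mean (line) and SD (bars). The groups overlap for every gene, with 1 pool far above the others of its genotype for Asns (knockout pool 2 and wild-type pool 3) and for Ddit3, Chac1 and Phgdh (knockout pool 3).

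Atf4, the factor itself, had a similar mean RNA level in both genotypes. Its brightest probe set read 891, 731 and 1150 in Nrf2 ko liver and 1152, 1061 and 882 in Nrf2 wt liver. These intensities overlapped, with the lowest value in knockout pool 2 and knockout pool 3 level with the highest wild-type pool. Once normalized the groups overlapped too, with the lowest value in wild-type pool 3 and the highest in wild-type pool 2. The log2 difference was -0.01 ± 0.19 (SE, n = 3 per genotype; adjusted p = 0.99), with a 95% interval from -0.44 to 0.42. At a second Atf4 probe set the normalized values of the knockout pools all lay below those of the wild-type pools, by 0.24 ± 0.14 log2 in the mean, and it did not pass (adjusted p = 0.75). It was the only 1 of the 16 tested probe sets whose groups did not overlap, where 13.4% of all tested probe sets did not. The remaining Atf4 probe set was dim, between 1.03 and 1.92 on all 6 arrays.

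Atf5, a related factor that is also translated more under stress, was the steadier of the factors. It read 1206, 1293 and 1255 in the knockout and 1467, 1200.5 and 1214 in the wild type. The pools of either genotype overlapped almost fully once normalized. Knockout minus wild type came to 0.12 ± 0.13 log2 (SE, n = 3 per genotype; adjusted p = 0.88), and its 95% interval ran from -0.19 to 0.43.

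Ddit3 encodes CHOP, a factor that pairs with ATF4 and promotes cell death under lasting stress. Its intensities were 65.2, 70.1 and 165 in the knockout and 96.7, 86.0 and 132 in the wild type. Knockout pool 3 was thus the highest of the 6 while the other knockout pools were the lowest. Knockout and wild type differed by -0.04 ± 0.27 log2 (SE, n = 3 per genotype; adjusted p = 0.99), with a 95% interval from -0.65 to 0.57. The second Ddit3 probe set repeated the pool order at its top, with 91.5 in knockout pool 3 and 61.0 in wild-type pool 3 and at most 24.4 elsewhere.

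Trib3, a pseudokinase that restrains both ATF4 and insulin signalling through AKT, was somewhat lower in the knockout within the spread. It read 42.4, 54.1 and 69.9 in the knockout and 68.0, 47.4 and 110 in the wild type. Wild-type pool 3 stood above the other 5. The log2 difference was -0.24 ± 0.22 (SE, n = 3 per genotype; adjusted p = 0.85), with a 95% interval from -0.74 to 0.27. It was 0.00092 without wild-type pool 3. The second Trib3 probe set was at -0.08 ± 0.21.

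Chac1, which breaks down glutathione and is a strong ATF4 target, had intensities of 43.7, 42.4 and 115 in the knockout and 85.6, 58.8 and 121 in the wild type. Knockout pools 1 and 2 were the lowest of the 6, and knockout pool 3 matched the highest wild-type pool. The genotypes differed by -0.34 ± 0.30 log2 (SE, n = 3 per genotype; adjusted p = 0.83), with a 95% interval from -1.03 to 0.34. Without knockout pool 3 it was -0.70 (adjusted p = 0.38), and without knockout pool 2 it was -0.13.

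Asns, asparagine synthetase, varied more between pools than between genotypes. Its brighter probe set read 28.4, 153 and 41.8 in the knockout and 53.1, 46.6 and 167 in the wild type. Knockout pool 2 and wild-type pool 3 were each several times the other pools of their genotype, by 5.39-fold from lowest to highest in the knockout and 3.59-fold in the wild type. The second Asns probe set showed the same pools high, with 118 in knockout pool 2, 130 in wild-type pool 3 and at most 27.3 elsewhere. The log2 difference was -0.23 ± 0.59 at the brighter probe set (SE, n = 3 per genotype; adjusted p = 0.96) and 0.11 ± 0.82 at the other (adjusted p = 0.99), so the probe sets differed in sign. The 95% interval at the brighter one, from -1.57 to 1.11, leaves a change of more than 2-fold in either direction within its bounds.

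Of the serine pathway, Phgdh, which takes the first step from 3-phosphoglycerate, had the widest difference of the 10 genes. The tested probe set read 14.1, 19.5 and 73.3 in the knockout and 58.6, 55.1 and 77.3 in the wild type. Knockout pools 1 and 2 lay well below every wild-type pool, and knockout pool 3 lay within the wild-type range. On the log2 scale the difference was -0.92 ± 0.41 (SE, n = 3 per genotype), or 1.90-fold toward lower in Nrf2 ko liver, with a 95% interval from -1.87 to 0.02, an unadjusted p of 0.0542 and an adjusted p of 0.66. Without knockout pool 3 it was -1.47, with an adjusted p of 0.0688. The other 3 Phgdh probe sets lay under the filter and pointed the other way. In the fit without the filter they were at 0.42 ± 0.35, 0.07 ± 0.31 and 0.98 ± 0.29. The last of these read 5.37, 6.36 and 14.4 in the knockout and 1.26, 2.65 and 1.03 in the wild type, without overlap, as 5.05% of the probe sets under the filter did in that direction, and had an adjusted p of 0.60. The direction for Phgdh therefore depended on the probe set.

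Psat1, the aminotransferase of the second step, was too dim to test. Its brighter probe set read 7.66, 7.74 and 10.9 in the knockout and 8.72, 5.17 and 16.1 in the wild type. In the fit without the filter its log2 difference was 0.03 ± 0.29 (SE, n = 3 per genotype; adjusted p = 0.99), and that of the second probe set was 0.50 ± 0.39. Values this low, near the pseudocount of 5.26 that was added before taking logs, understate any change.

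Psph, the phosphatase that releases serine, was on the higher side. It read 74.4, 106 and 92.6 in the knockout and 93.2, 51.7 and 109 in the wild type. The genotypes overlapped, with wild-type pool 2 the lowest. This gave a log2 difference of 0.28 ± 0.19 (SE, n = 3 per genotype; adjusted p = 0.77), with a 95% interval from -0.15 to 0.70.

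Shmt2, the mitochondrial enzyme that converts serine to glycine and loads folate with its carbon, was measured most tightly. Its brightest probe set read 1033, 928 and 1142 in the knockout and 1534, 952 and 1360 in the wild type. Wild-type pools 1 and 3, the highest here, were also the arrays with the highest trimmed mean intensities, 132 and 128, and after normalization the pools overlapped. After log2 transformation the genotypes differed by -0.13 ± 0.11 (SE, n = 3 per genotype; adjusted p = 0.81), and the 95% interval of the fold, wild type over knockout, was 0.93 to 1.30. A second probe set gave -0.14 ± 0.11, and the dimmer ones gave 0.02 ± 0.20 and -0.48 ± 0.40.

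**Figure D2:**
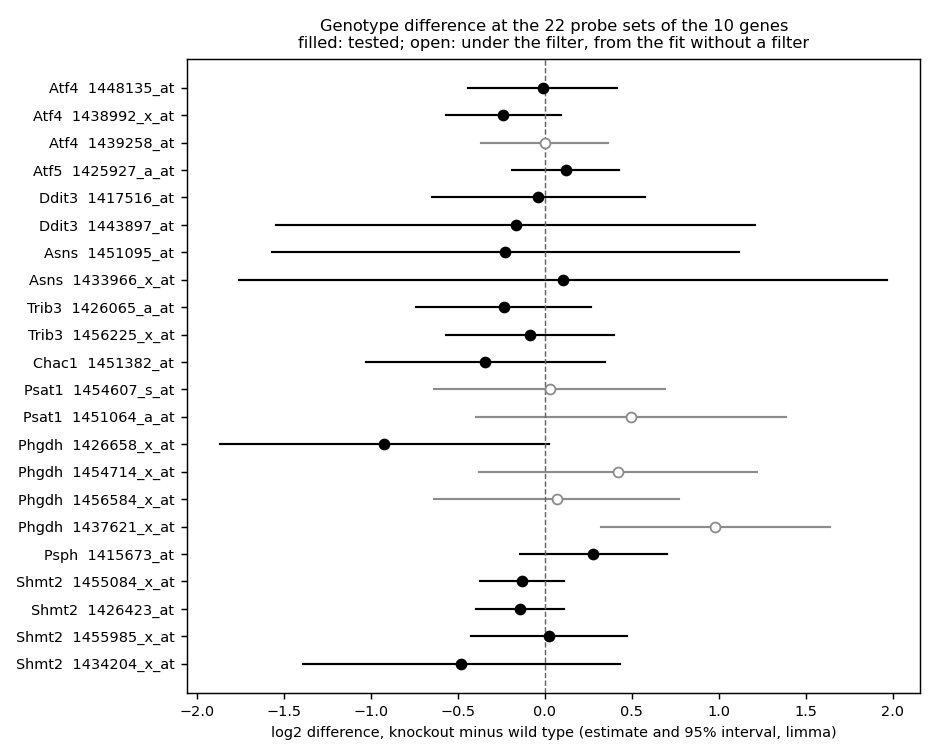
Log2 difference between knockout and wild-type livers (x axis, estimate and 95% interval from limma) at each of the 22 probe sets of the 10 genes; filled points were tested, and open points lay under the filter and come from the fit without it. Intervals are narrow for Atf5 and the brighter Shmt2 probe sets and wide for Asns, and the 4 Phgdh probe sets lie on both sides of 0.

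At several of these genes the pools of a single genotype differed widely from each other. The within-genotype SD on the log2 scale, pooled over both genotypes, was 1.03 for Asns, 0.69 for Phgdh, 0.49 for Chac1 and 0.43 for Ddit3, where the median over all tested genes was 0.18. The SD of Asns was at the 99.6th percentile of all tested genes, that of Phgdh at the 98.3rd, that of Chac1 at the 94.6th and that of Ddit3 at the 92.3rd. Dim probe sets vary more, so the same was read among genes within 0.5 log2 of each gene's mean level, which gave the 99.6th, 98.3rd, 95.7th and 94.7th percentiles. For Atf4 the SD was 0.31, at the 80.1st percentile of all tested genes and the 90.1st near its level. Shmt2 had an SD of 0.14, at the 31.6th percentile of all tested genes and the 60.8th near its level.

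The high pools were not the same for every gene. Knockout pool 3 and wild-type pool 3 held the 2 highest values for Ddit3, Trib3, Chac1 and Phgdh, 4 of the 9 tested genes, where 8.3% of all tested genes had these pools on top. Knockout pool 2 and wild-type pool 3 held them for Asns and Psph, where 5.63% of all tested genes did. Atf4 and Atf5 went another way, with their lowest normalized values in wild-type pool 3. These pools were picked out after the values had been seen. On the same arrays the summed level of the 6 red blood cell markers with a probe set was lowest in knockout pool 3, at 241, and wild-type pool 3, at 307, and was 936 to 1260 in the other 4 pools. Of those 6 markers Hbb-b2 and Alas2 were above the filter, and Hba-a1, Slc4a1, Epb42 and Ermap were not. The sum followed Alas2, which read 693, 907 and 164 in the knockout and 1415, 956 and 243 in the wild type. Hbb-b2 did not share this order. It read 60.4, 113 and 78.5 in the knockout and 76.6, 35.9 and 76.5 in the wild type. The part of red blood cells in the values of Ddit3, Trib3, Chac1 and Phgdh was not tested.

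**Figure D3:**
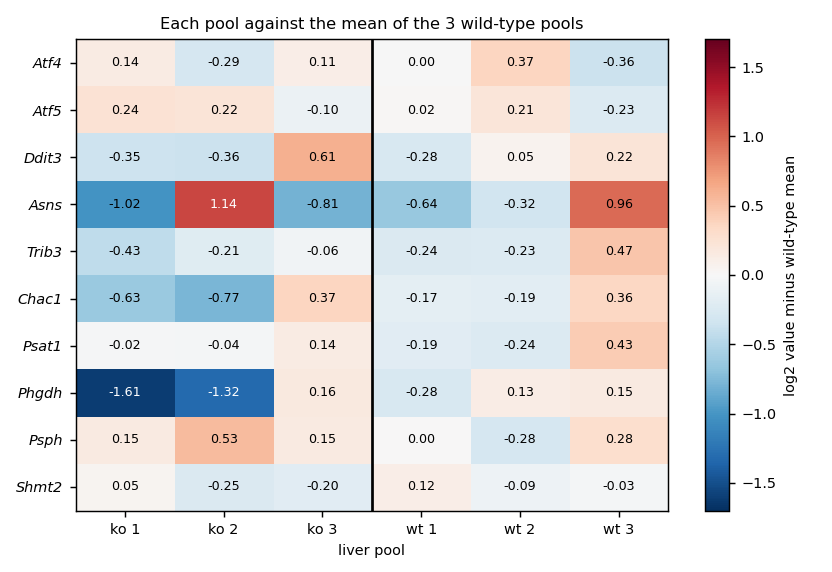
Normalized log2 value of each gene in each pool minus the mean of the 3 wild-type pools (colour and printed value), knockout pools on the left (ko) and wild-type pools on the right (wt). Asns stands out in ko 2 (1.14) and wt 3 (0.96), and Phgdh in ko 1 (-1.61) and ko 2 (-1.32).

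Of 88 tested genes in the other lists of the pathway, the 3 whose normalized values over the 6 pools were most like those of Asns by Pearson correlation were Pgam1, Got1 and Qars. Pgam1, the glycolytic enzyme just downstream of the branch point to serine, had a Pearson correlation of 0.94 and a Spearman correlation of 0.83, Got1 had 0.81 and 0.49, and Qars had 0.75 and 0.43. These are descriptions over 6 pools that share their arrays, with the best of 88 picked. By Spearman correlation Sars, at 0.83, and Mars1, at 0.77, were more alike than Got1 or Qars. Got1, the cytosolic aspartate aminotransferase, read 1516, 3099 and 1947 in the knockout and 1451, 1292 and 2773 in the wild type, highest in the same pools as Asns.

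No gene that feeds into or brakes the integrated stress response passed the test. Of 18 tested genes 13 were lower and 5 higher, and 0 passed. At an unadjusted p under 0.05, 4.15% of all tested genes were lower, and 1 gene of this list was. That gene was Dnajc3, an inhibitor of eIF2 kinases that resides in the endoplasmic reticulum, at -0.39 ± 0.16 log2 (SE, n = 3 per genotype; adjusted p = 0.63). Ppp1r15b, a subunit of the eIF2 phosphatase, was at -0.24 ± 0.14, Eif2b1, a subunit of the eIF2 exchange factor, at -0.19 ± 0.11, and Gcn1, which activates the amino acid sensing kinase, at -0.19 ± 0.13. The list median was -0.03.

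Among 11 tested factors of the bZIP class, which can pair or compete with ATF4, 0 passed. Cebpb, an ATF4 partner at C/EBP-ATF elements, read 512, 340 and 1089 in the knockout and 1332, 961 and 2130 in the wild type. Its groups did not overlap once normalized, and the log2 difference was -1.11 ± 0.33 (SE, n = 3 per genotype), with an unadjusted p of 0.0087 and an adjusted p of 0.49. It was the single tested member of its list without overlap, where 6.54% of all tested genes were lower without overlap. Jun was at -0.57 ± 0.46, Cebpa at -0.14 ± 0.16 and Atf3, itself an ATF4 target, at -0.17 ± 0.35. Of the 11 genes 6 were lower and 5 higher, with a median of 0.00.

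The other known ATF4 targets were divided between the directions, and none passed. Of 23 tested genes 13 were lower and 10 higher, 0 passed, and at an unadjusted p under 0.05 there were 2 on each side. Over all tested genes 4.15% were lower and 4.08% higher at that p. Once normalized, 3 of the 23 were higher and 4 lower without overlap, where 7.39% and 6.54% of all tested genes were. Vldlr, a lipoprotein receptor, read 19.0, 81.2 and 39.6 in the knockout and 11.0, 8.08 and 8.96 in the wild type. Every knockout pool was above every wild-type pool, and the log2 difference was 1.73 ± 0.40 (SE, n = 3 per genotype; adjusted p = 0.31). Vldlr passed the filter only through the knockout. Its mean log2 value was 5.56 there and 3.83 in the wild type, where the filter lay at 4.48. With the filter at the 70th percentile it was not tested. Aldh18a1 and Stc2, also counted as higher, passed the filter in the same way. Their mean log2 values were 4.81 and 4.85 in the knockout and 4.37 and 4.45 in the wild type. The counts of higher genes above include Vldlr, Aldh18a1 and Stc2, and the count of those without overlap includes Vldlr. Slc6a9, a glycine transporter, read 141, 94.7 and 130 in the knockout and 283, 194 and 226 in the wild type, without overlap, at -0.76 ± 0.18 (adjusted p = 0.33). Cth, which makes cysteine from cystathionine, was at 0.47 ± 0.13 (adjusted p = 0.44), and Ddit4, an inhibitor of mTORC1, at -0.62 ± 0.24 (adjusted p = 0.61). Both were without overlap once normalized. The list median was -0.04.

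Aminoacyl-tRNA synthetase genes, many of which ATF4 induces, stayed close to 0. Of 21 tested genes 11 were lower and 10 higher, 0 passed, and all log2 differences lay between -0.20 and 0.37. The largest was that of Cars, at 0.37 ± 0.15 (SE, n = 3 per genotype; adjusted p = 0.62). Lars was at 0.21 ± 0.12, Hars at 0.15 ± 0.10 and Sars, which charges serine, at -0.13 ± 0.10. At an unadjusted limma p under 0.05, 1 gene (Cars) was higher and 0 were lower. Over all tested genes 4.08% were higher and 4.15% lower at that p. Once normalized, 1 gene (Farsb) was lower without overlap, where 6.54% of all tested genes were. The list median was -0.03.

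Genes of serine, glycine and folate carbon metabolism were mostly on the higher side in the knockout, without passing. Of 19 tested genes 13 were higher and 6 lower, 0 passed, and 4 were higher and 0 lower at an unadjusted p under 0.05. Over all tested genes 4.08% were higher and 4.15% lower at that p. After normalization the groups did not overlap for 5 genes, all higher, though the deposited intensities overlapped, where 7.39% of all tested genes were higher without overlap. Gldc, of the glycine cleavage system, read 1021, 1209 and 1248 in the knockout and 1216, 809 and 984 in the wild type, a log2 difference of 0.38 ± 0.10 (SE, n = 3 per genotype; adjusted p = 0.43). Cbs, which joins serine to homocysteine, read 1905, 3065 and 2597 in the knockout and 2256, 1586 and 2157 in the wild type, at 0.45 ± 0.13 (adjusted p = 0.45). Mthfd1, a folate enzyme, was at 0.35 ± 0.12 (adjusted p = 0.57) and Agxt, which consumes glyoxylate and serine, at 0.46 ± 0.17 (adjusted p = 0.60). By the mean of their tested probe sets Mthfd1 was at 0.16 and Cbs at 0.60. The list median was 0.08. A difference between this list and the 10 genes was not tested.

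**Figure D4:**
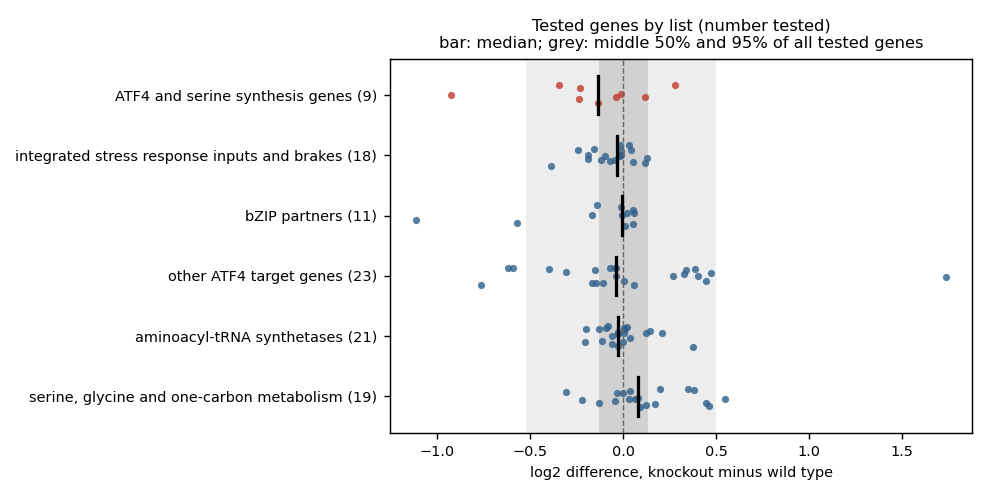
Log2 difference between knockout and wild-type livers (x axis) of each tested gene of the 10 and of the other pathway lists, with the list median as a bar and the middle 50% and 95% of all tested genes in grey. The points farthest out are Vldlr at 1.73, Cebpb at -1.11 and Phgdh at -0.92, and the list medians lie between -0.13 and 0.08. Vldlr passed the filter only through its knockout pools.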

How the data were processed

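Liver RNA was labelled with biotin and hybridised to Affymetrix mouse arrays in 1 colour, as the labels' protocols state. The authors deposited intensities on a linear scale, 1 per probe set, between 0.0174 and 16555. The submitters' processing notes name GCOS 1.4. How signals were summarised and scaled is not given in the sources used here. Probe sets took the symbols of the platform annotation, updated through Entrez identifiers with RefSeq names of GRCm38.p6.

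For each value log2(intensity + 5.26) was formed, with the 25th percentile of the table as pseudocount, and arrays were quantile normalized. Without the 64 controls, 22519 probe sets (11102 genes) had a mean at or above the median and were tested by a limma fit with an intensity-dependent prior variance (limma 3.58.1, R 4.3.3). P-values were adjusted by Benjamini-Hochberg over these probe sets, at a threshold of 0.05. A gene took its brightest tested probe set. Fold changes are on this scale and understate those of dim probe sets. The number of arrays limits the precision. The procedure was tested on simulated data. The genes named were all 10, Nfe2l2, and up to 4 with the smallest p of each other list. Of the listed genes, 3 were matched through an older symbol. Lists of markers of the exocrine pancreas, macrophages, endothelium, cholangiocytes and lymphocytes with granulocytes were also measured: tested were 3 of 10, 10 of 10, 9 of 10, 3 of 8 and 5 of 10 members, and 0 passed. The members and lists were chosen with earlier results of these data known.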

Additional observations from a re-analysis of the deposited data

How the results depend on the processing

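Arrays were also centred on medians or weighted, the pseudocount set to 1.31 or 21.0, the filter dropped or raised to the 70th percentile, and the trend in intensity left out. Further settings blocked on the replicate number, averaged each gene's probe sets, and left out each pool in turn. Over 147 values of the 10 genes 0 passed, the lowest adjusted p being 0.0688, and 135 kept their sign. Phgdh lay under the filter at the 70th percentile and has no value there. All other settings with all pools kept the sign of each of the 10 genes. Averaging could not change Atf5, Chac1, Phgdh or Psph, which each had a single tested probe set. The Phgdh probe sets under the filter, which pointed the other way, did not enter that average. With a pool left out, the log2 difference ran from -0.20 to 0.17 for Atf4, from -0.36 to 0.13 for Ddit3, from -0.91 to 0.25 for Asns, from -0.36 to 0.00092 for Trib3 and from -0.092 to 0.24 for Psat1. The value of -0.91 for Asns was without knockout pool 2 and that of 0.25 without wild-type pool 3. For Jun, Cebpa and Atf3 these ranges were -0.90 to 0.052, -0.28 to 0.056 and -0.50 to 0.12, and Gcn1 was at 0.071 by the mean of its probe sets. Of the 20 other named genes 0 passed in any setting, with 298 values in all. The 5 other gene lists and the 10 genes had 0 calls in every setting. Median centring moved the median of all genes from 0.01 to -0.03.

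Over all probe sets 32 passed, against 20 unfiltered, 19 with the filter raised to the 70th percentile, 18 without the trend and 18 to 32 with a pool left out. It was 41 with arrays centred on medians, 40 with array weights, and 28 and 33 with the lower and higher pseudocount. With the replicate number as a block the count was 32. With that block Cebpb was at a limma adjusted p of 0.075 and Cth at 0.13. Same-numbered pools deviated together with correlations of 0.13, 0.05 and 0.25. Knockout pools 1 and 3 were each most like the wild-type pool of their number, and knockout pool 2 was most like wild-type pool 1. The labels do not say that the numbers pair the pools, so they were not taken to do so. Dim probe sets, such as those of Psat1, limit what can be seen.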
